A study of Brassica rapa with 12 samples.

Results

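FLOWERING LOCUS C (FLC) is a repressor of flowering, and Brassica rapa carries several copies of it. The 4 copies described here were chosen by identifier, namely FLC1 (Bra009055), FLC2 (Bra028599), FLC3 (Bra006051) and FLC5 (Bra022771), out of 41020 genes in the deposited count table. The copy names come with the choice of these identifiers, since neither the deposited tables nor the gene table used here pairs them with a name. The RNA came from 8-week-old plants of B. rapa, the crop species of Chinese cabbage and turnip, and was measured in stem and in bud by sequencing. The 12 libraries formed 4 groups of 3, namely stems of BrCHR39-silenced lines, wild type stems, buds of BrCHR39-silenced lines and wild type buds. BrCHR39 is presented by the series as a chromatin remodelling ATPase that promotes apical dominance, the hold of the shoot tip over side shoots. All plants grew in pots of soil and vermiculite in a climate chamber with 16 h of light at 21 °C and 8 h of dark at 18 °C. How BrCHR39 was silenced, how many lines were used, whether plants were pooled, whether the buds were flower buds or side-shoot buds, and any cold treatment are not stated in the labels.

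In Arabidopsis, FLC encodes a MADS-box transcription factor that holds back flowering by binding the floral activators FT and SOC1 and keeping them low. FRIGIDA and several chromatin factors, among them the remodelling ATPase PIE1, keep FLC active, while prolonged cold shuts it down through Polycomb proteins, the process called vernalization. In B. rapa the FLC copies are likewise known as repressors that fall with cold, and variation in them has been tied to differences in flowering time. A plan to describe 51 further flowering genes by symbol, from FRIGIDA and the vernalization genes to FT and SOC1, matched 0 identifiers, so they are not analysed here. No sequence of the copies was used here.

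Libraries held 12275190 to 15693349 reads assigned to genes, and 28114 genes carried enough reads to be tested. Across genes, log2 CPM (library-scaled reads) correlated at 0.990 to 0.992 within groups and at 0.651 to 0.893 between groups. Silenced stems correlated slightly better with wild type buds, at 0.702 to 0.704, than with silenced buds, at 0.693 to 0.695. BrCHR39 is given no identifier in the labels or tables, so the genotype labels were not checked on it, and every direction below rests on those labels. The labels do not say whether replicate libraries stem from different plants, so each p-value reflects the spread among the sequenced libraries, and that spread may be technical.

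All 4 copies had reads in every library and were tested. FLC1 drew 113 to 701 reads per library, FLC2 178 to 537, FLC3 39 to 954 and FLC5 45 to 98. The coding lengths behind the deposited values were 621 bases for FLC1, 591 for FLC2 and 594 for FLC3, and 432 for FLC5, whose gene model is the shortest of the 4. Levels are given as FPKM, reads per kilobase of this length scaled to the reads assigned in the library, which allows copies to be set side by side. The copies are related in sequence, and how the authors' counting treated reads that match more than 1 copy is not stated in the labels, so each copy's level is uncertain by that amount. In whole tissue, fewer cells that express a gene and less RNA per cell cannot be told apart.

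FLC3 was higher in silenced plants in both tissues. In silenced stems it stood at 9.76, 8.16 and 9.88 FPKM in the 3 libraries, against 6.11, 4.73 and 4.58 FPKM in wild type stems. Silenced buds had 98.7, 108 and 98.9 FPKM, against 30.7, 32.7 and 31.1 FPKM in wild type buds. Every silenced library lay above every wild type library of its tissue, and every bud library above every stem library. FLC3 rose 1.81-fold in silenced stems (log2 fold change 0.86 ± 0.16 SE, edgeR's quasi-likelihood test, adjusted p = 1.04e-06). It rose 3.08-fold in silenced buds (log2 fold change 1.62 ± 0.075 SE, edgeR adjusted p = 9.8e-48). The wild type stem values rest on 39 to 55 reads per library, the fewest of any copy and group.

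FLC2 moved in opposite directions in the tissues. It was at 36.1, 33.9 and 33.7 FPKM in silenced stems, against 53.5, 59.3 and 53.2 FPKM in wild type stems. In silenced buds it was at 61.6, 51.6 and 52.8 FPKM, against 24.5, 21.3 and 25.4 FPKM in wild type buds. The groups did not overlap within either tissue: silenced stems lay below wild type stems, and silenced buds above wild type buds. FLC2 fell in silenced stems by 0.67 ± 0.079 SE on the log2 scale, a 1.59-fold difference (edgeR adjusted p = 6.53e-14). In silenced buds it rose 2.21-fold, with a log2 fold change of 1.15 ± 0.084 SE (edgeR adjusted p = 1.67e-27). Genes called lower in stem and higher in bud, as FLC2 was, made up 16.6% of all genes tested. Genes called higher in both, as FLC3 was, made up 10.5%.

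FLC1 fell in silenced stems, and its difference in bud was small. Silenced stems had 14.3, 14.6 and 13.0 FPKM of FLC1, against 20.1, 23.9 and 19.99 FPKM in wild type stems. Silenced buds had 61.0, 66.0 and 72.3 FPKM, against 55.4, 57.0 and 60.1 FPKM in wild type buds. The stem groups were apart, whereas the lowest silenced bud library stood just above the highest wild type bud library. With the library sizes of the test, which are scaled by TMM (trimmed mean of M values), the bud groups overlapped, at 51.6 to 61.4 rescaled FPKM in silenced buds and 49.2 to 53.4 in wild type buds. The fall in stem was 1.51-fold (log2 fold change -0.60 ± 0.11 SE, edgeR adjusted p = 3.66e-07). In bud the difference did not pass the test, at a log2 fold change of 0.14 (95% interval 0.0020 to 0.28, edgeR adjusted p = 0.0582). It passed with library totals in place of TMM (log2 fold change 0.21, adjusted p = 0.00446) and without silenced bud replicate 1 (0.23, adjusted p = 0.0047).

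FLC5, a low copy in all groups, showed no called difference between genotypes. It stood at 7.46, 7.42 and 10.8 FPKM in silenced stems, against 10.4, 7.56 and 10.3 FPKM in wild type stems. Silenced buds had 13.7, 15.1 and 13.6 FPKM, against 10.4, 10.4 and 14.5 FPKM in wild type buds. In both tissues the genotypes overlapped. The log2 fold change was -0.13 in stem (95% interval -0.51 to 0.25, edgeR adjusted p = 0.58) and 0.19 in bud (95% interval -0.14 to 0.52, edgeR adjusted p = 0.297). With each library left out in turn, it lay between -0.32 and -0.028 in stem and between 0.10 and 0.38 in bud, and was not called in any of these fits. The values rest on 45 to 98 reads per library.

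**Figure D1:**
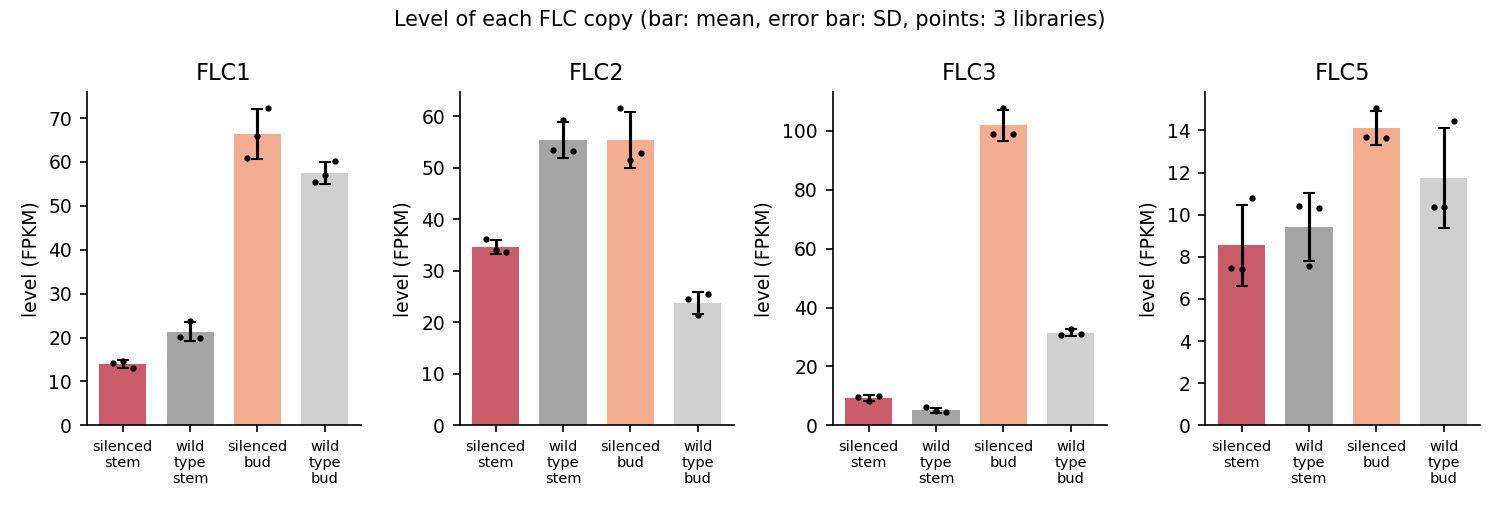
Level of each FLC copy in FPKM (vertical axis, one scale per panel) in silenced stems, wild type stems, silenced buds and wild type buds. Bars are means, error bars SD and points the 3 libraries; FLC3 reached 102 FPKM in silenced buds against 31.5 FPKM in wild type buds, and FLC2 had the reverse order of genotypes in stem and bud.

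Of the 4 copies, 3 were called in stem, where 69.7% of all genes tested were called at an adjusted p under 0.05, and 2 were called in bud, where the share of all genes was 79.8%. Against such backgrounds the number of copies called is no result about the copies. The share of all genes whose libraries separate without overlap was not counted, so such separation only describes the copies. In stem, FLC1 and FLC2 were among the 32.1% of genes called lower and FLC3 among the 37.6% called higher. All 3 changes were under 2-fold, and 36.7% to 49.7% of the genes tested changed by more than they did. In bud, FLC2 and FLC3 were among the 13.4% of genes called at least 2-fold higher. The change of FLC3 in bud was higher than that of 95.2% of the genes tested, and that of FLC2 higher than 89.4%. Changes in bud larger than that of FLC3 in either direction were seen in 21.1% of genes, and larger than that of FLC2 in 32.8%. The median log2 fold change of the 4 copies was -0.36 in stem, beside 0.046 over all genes tested, and 0.67 in bud, beside -0.034. These medians show no common shift, since the copies differed among themselves and in stem went in both directions. How far medians of 4 other genes would vary was not tested.

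**Figure D2:**
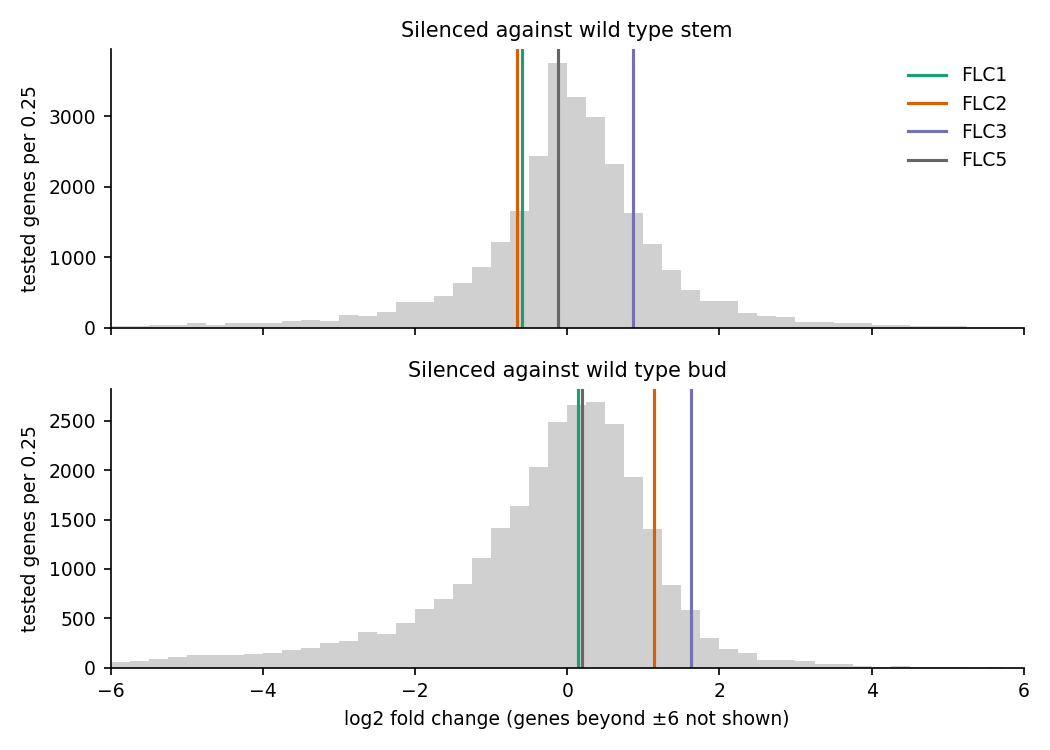
Number of tested genes per 0.25 of log2 fold change (horizontal axis), silenced against wild type, in stem (top) and bud (bottom), with a line for each FLC copy. In stem the copies lie between -0.67 and 0.86, within the bulk of genes, while in bud FLC2 at 1.15 and FLC3 at 1.62 lie on the upper flank.

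The effect of silencing was compared directly between bud and stem as an interaction. It was more positive in bud for FLC1, FLC2 and FLC3, which passed the test. In this comparison 74.4% of all genes passed and 35.5% were more positive in bud, so the number of copies that passed is no result about the copies. Larger differences in either direction were seen in 32.0% of genes for FLC2, 64.7% for FLC3 and 65.9% for FLC1. FLC2 differed most, by 1.81 ± 0.12 SE on the log2 scale, 3.51-fold (edgeR adjusted p = 5.19e-33). The effects on FLC3 differed by 0.76 ± 0.19 SE (adjusted p = 0.000113) and those on FLC1 by 0.74 ± 0.13 SE (adjusted p = 1.22e-07, both by edgeR). For FLC3 the rise was thus larger in bud than in stem, and for FLC1 a fall in stem stood against a small positive value in bud. FLC5 did not pass, with a difference of 0.31 (95% interval -0.19 to 0.82, edgeR adjusted p = 0.264), and lay between 0.22 and 0.52 with each library left out in turn.

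**Figure D3:**
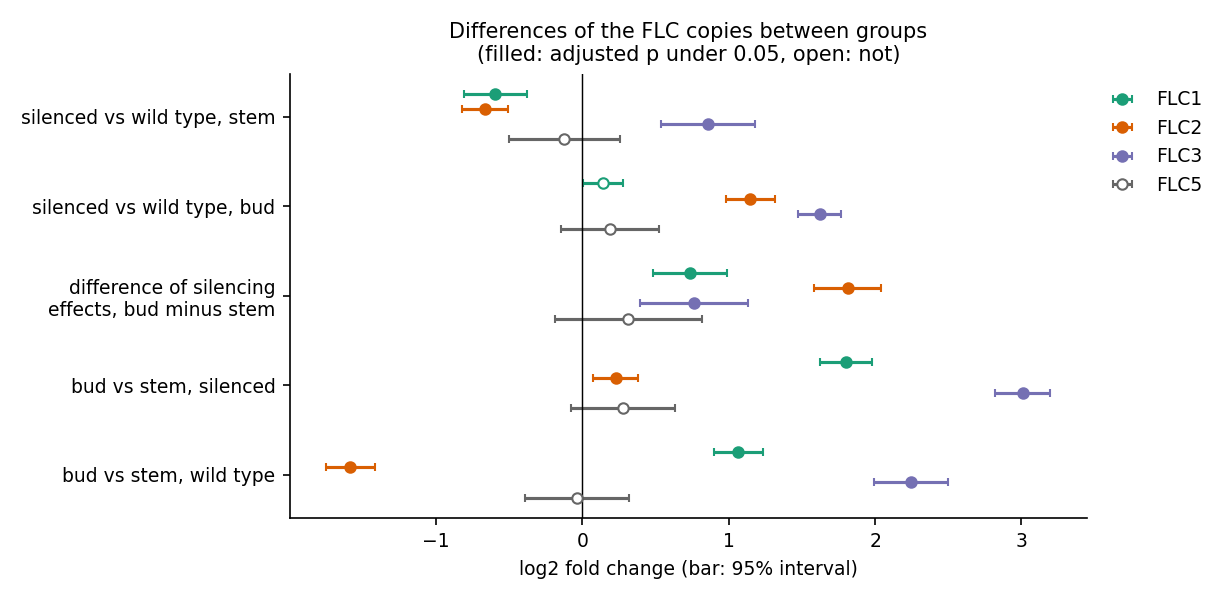
Log2 fold change of each FLC copy (horizontal axis) with its 95% interval in 5 comparisons; filled points passed edgeR's test at an adjusted p under 0.05. FLC2 lies at -0.67 for silencing in stem and 1.15 in bud, and at 0.23 for bud against stem in silenced plants but -1.59 in wild type.

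The tissues were compared within each genotype. The copies differed in where they were high. FLC3 and FLC1 were higher in buds than in stems in both genotypes. FLC3 averaged 102 ± 5.17 FPKM in silenced buds and 9.27 ± 0.962 FPKM in silenced stems (SD, n = 3 each), and the tested log2 fold change was 3.01 ± 0.095 SE, 8.05-fold (edgeR adjusted p = 2.94e-68). In wild type plants it averaged 31.5 ± 1.05 FPKM in buds and 5.14 ± 0.845 FPKM in stems, with a log2 fold change of 2.25 ± 0.13 SE (edgeR adjusted p = 4.45e-38). FLC1 averaged 66.4 ± 5.69 FPKM in silenced buds and 14.0 ± 0.842 FPKM in silenced stems, a log2 fold change of 1.80 ± 0.091 SE (edgeR adjusted p = 1.02e-43). In wild type plants FLC1 averaged 57.5 ± 2.43 FPKM in buds and 21.3 ± 2.21 FPKM in stems, a log2 fold change of 1.07 ± 0.084 SE (edgeR adjusted p = 3.05e-25). All bud libraries lay above all stem libraries of the same genotype for both copies, and how many of all genes separate likewise was not counted.

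FLC2 ran the other way in wild type plants. It averaged 23.8 ± 2.15 FPKM in wild type buds and 55.4 ± 3.45 FPKM in wild type stems, and its log2 fold change of -1.59 ± 0.083 SE made it 3.00-fold lower in bud (edgeR adjusted p = 1.61e-41). In silenced plants FLC2 averaged 55.3 ± 5.47 FPKM in buds and 34.6 ± 1.33 FPKM in stems, so the order of the tissues was turned. The test put this difference at a log2 fold change of 0.23 ± 0.079 SE (edgeR adjusted p = 0.00609). That size depends on how buds are scaled to stems. Scaling by library totals, as FPKM does, shifted the median gene by 0.45 between silenced buds and silenced stems and by 0.37 between wild type buds and wild type stems, relative to TMM. FLC2 was at 0.68 on that scaling and stayed called. With TMM, the call was lost without silenced bud replicate 1 (0.18, edgeR adjusted p = 0.0525).

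For FLC5 the call between tissues depended on the scaling. It averaged 14.1 ± 0.812 FPKM in silenced buds and 8.55 ± 1.92 FPKM in silenced stems, and the libraries did not overlap in FPKM. The test on TMM library sizes did not call it (log2 fold change 0.28, 95% interval -0.078 to 0.63, edgeR adjusted p = 0.141), whereas library totals did (0.73, adjusted p = 0.000105). Wild type buds averaged 11.7 ± 2.36 FPKM and wild type stems 9.43 ± 1.62 FPKM, which overlapped. The tested log2 fold change there was -0.037 (95% interval -0.39 to 0.32, edgeR adjusted p = 0.851), and its sign turned with library totals (0.33, adjusted p = 0.0786) and under other settings. In all, 3 of the 4 copies were called between silenced buds and silenced stems, where 85.1% of all genes were, and 3 between wild type buds and wild type stems, where 86.3% were.

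The order of the groups can be read for each copy. FLC3 was highest in silenced buds, then in wild type buds, silenced stems and wild type stems, with no overlap between neighbours. FLC1 was highest in silenced buds, then in wild type buds, wild type stems and silenced stems, and the bud groups overlapped once rescaled by TMM. For FLC2, silenced buds and wild type stems shared the top in FPKM, with overlapping libraries, followed by silenced stems and wild type buds. After TMM rescaling FLC2 averaged 46.9 in silenced buds and 63.5 in wild type stems, which no longer overlapped. The groups of FLC5 overlapped with each neighbour in the order.

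Which copy prevailed also differed between groups. In silenced stems FLC2 led, followed by FLC1, while FLC3 and FLC5 overlapped at the bottom. In wild type stems the order was FLC2, FLC1, FLC5 and FLC3, with no overlap between neighbours. In silenced buds FLC3 led, FLC1 and FLC2 overlapped in the middle, and FLC5 was last. In wild type buds the order was FLC1, FLC3, FLC2 and FLC5, again without overlap. The level of FLC3 in silenced buds exceeded that of 94.3% of the 35651 genes with reads in any library, against 80.9% in wild type buds. In silenced stems the level of FLC3 exceeded that of 63.2% of these genes, and in wild type stems 53.4%.

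Summed over the 4 copies, the FLC level was higher in silenced buds and lower in silenced stems. It was 238 ± 2.72 FPKM in silenced buds and 125 ± 5.75 FPKM in wild type buds (SD, n = 3 each). Silenced stems had 66.4 ± 1.92 FPKM and wild type stems 91.2 ± 3.81 FPKM. After TMM rescaling the sums were 202 ± 2.52 in silenced buds and 111 ± 4.93 in wild type buds, and 76.9 ± 2.38 in silenced stems and 105 ± 4.48 in wild type stems. Libraries of the genotypes did not overlap in either tissue. How far reads shared between copies touch this sum was not tested.

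FLC3 made up a larger share of this sum in silenced than in wild type plants. Its share was 42.8% ± 1.75 in silenced buds and 25.4% ± 1.61 in wild type buds (SD, n = 3 each), and 13.9% ± 1.07 in silenced stems and 5.64% ± 0.995 in wild type stems. FLC1 gave 27.9% ± 2.28 of the sum in silenced buds and 46.2% ± 0.657 in wild type buds. In stem its shares were closer, at 21.1% ± 1.72 in silenced and 23.3% ± 1.46 in wild type plants. FLC2 supplied most of the stem sum, 52.1% ± 1.84 in silenced stems and 60.6% ± 1.39 in wild type stems. In buds FLC2 gave 23.3% ± 2.56 in silenced and 19.1% ± 1.37 in wild type plants. FLC5 gave 5.94% ± 0.284 in silenced buds and 9.38% ± 1.43 in wild type buds, and 12.9% ± 2.72 in silenced stems and 10.4% ± 2.15 in wild type stems.

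**Figure D4:**
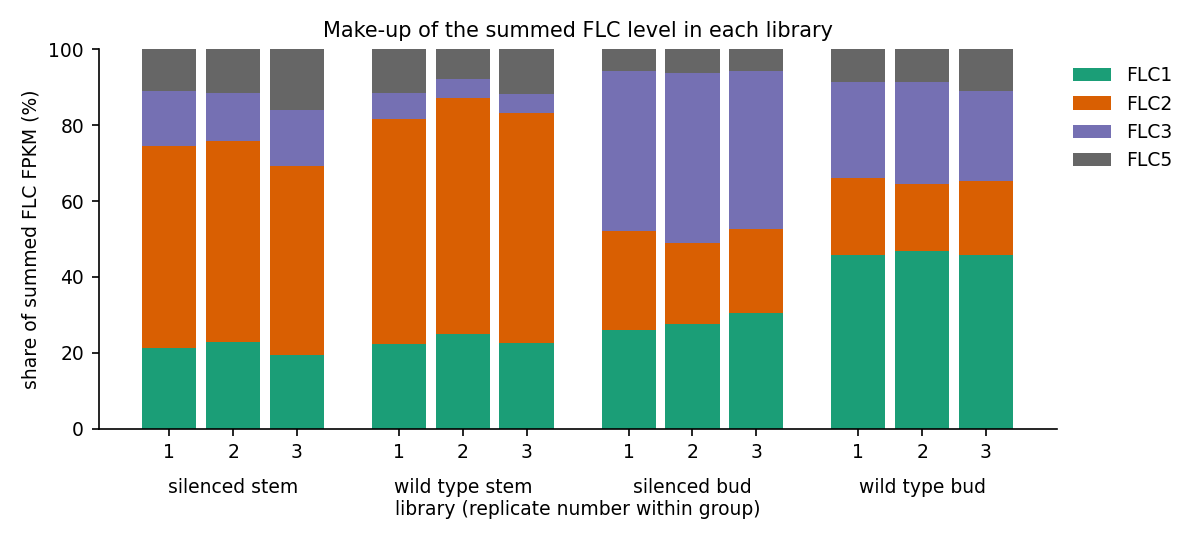
Share of each FLC copy in the summed FLC FPKM of each library (vertical axis, percent), with libraries grouped as silenced stem, wild type stem, silenced bud and wild type bud. FLC2 fills most of the stem bars, FLC3 42.8% of the silenced bud sum on average and FLC1 46.2% of the wild type bud sum.

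Ratios between copies within a library do not depend on how libraries are scaled, and describe how copies changed relative to each other. The 6 pairs of copies in each tissue gave 12 comparisons in all. The smallest p that an exact two-sided permutation test of 3 against 3 can give is 0.1, or 0.133 adjusted over the 12, so none could pass. Pairs without overlap stood at that smallest p. How many pairs of other genes separate likewise was not counted, so the ratios only describe the copies. The ratio of FLC3 to FLC1 in bud was 1.53 in silenced and 0.548 in wild type libraries (geometric means), a log2 difference of 1.49 without overlap. In stem the same ratio was 0.661 in silenced and 0.240 in wild type libraries, a log2 difference of 1.46, also without overlap. FLC3 thus gained on FLC1 2.80-fold in bud and 2.76-fold in stem.

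FLC3 gained less on FLC2 in bud, where both rose, than in stem, where they moved apart. The ratio of FLC3 to FLC2 was 1.84 in silenced buds and 1.33 in wild type buds, and 0.267 in silenced stems and 0.0922 in wild type stems, without overlap in either tissue. FLC2 and FLC1 kept close ratios in stem, at 2.48 in silenced and 2.60 in wild type libraries, which overlapped (exact permutation p = 0.3). In bud the ratio of FLC2 to FLC1 was 0.832 in silenced and 0.413 in wild type libraries, without overlap. FLC1 and FLC5 overlapped in their ratio in both tissues, with log2 differences of -0.46 in stem (exact permutation p = 0.4) and -0.080 in bud (exact permutation p = 0.8). With a library left out these lay between -0.58 and -0.22 in stem and between -0.21 and -0.0050 in bud. FLC3 gained on FLC5 2.01-fold in stem and 2.65-fold in bud, without overlap. Against FLC5, FLC2 gained 1.91-fold in bud and lost 1.44-fold in stem, both without overlap. In stem the log2 difference of that ratio was -0.53, and it was -0.33 without silenced stem replicate 3 or without wild type stem replicate 2.

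**Figure D5:**
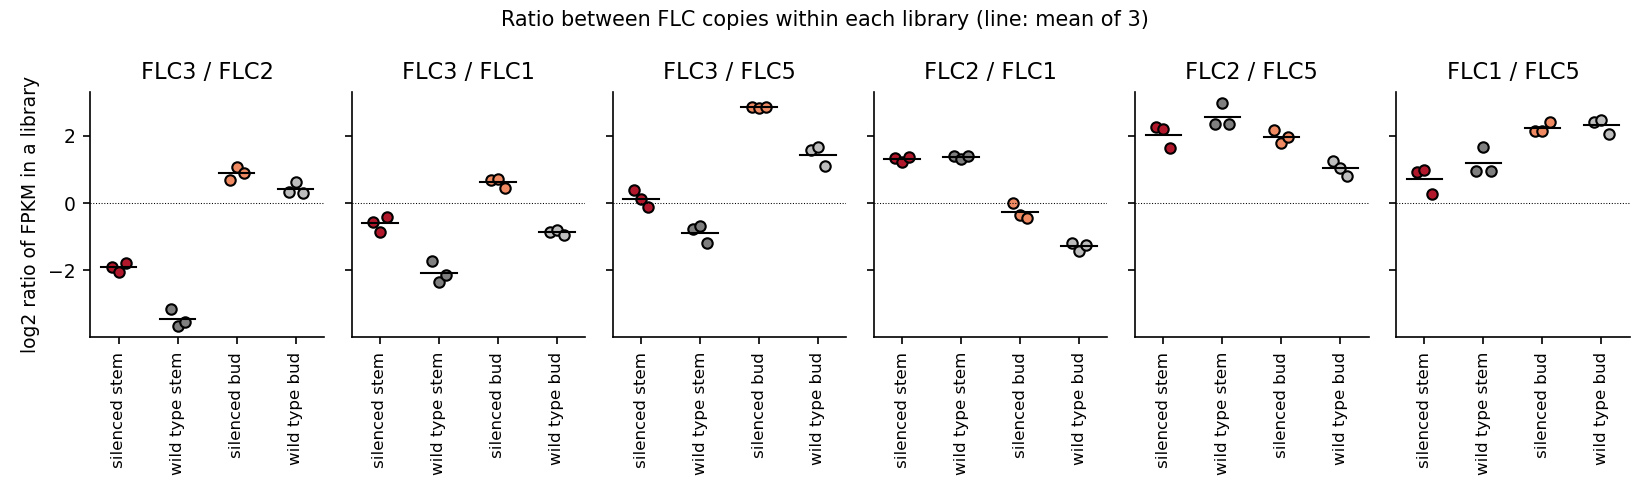
Log2 ratio of FPKM between 2 FLC copies in each library (vertical axis), for the 6 pairs of copies, with lines at the mean of 3 libraries in silenced stems, wild type stems, silenced buds and wild type buds. The ratios of FLC3 to each other copy are higher in silenced than in wild type libraries of both tissues, while FLC1 to FLC5 overlaps between genotypes.

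For each copy the gene with the most similar pattern was sought among 25369 other genes averaging at least 1 CPM, by Pearson's r of log2 CPM over the 12 libraries. These 12 points form only 4 groups, so r rests largely on differences between the groups and is given as a description. FLC3 was closest to Bra009430 (r = 0.996), and 977 genes reached 0.95, 3.85% of those compared. Bra009430 averaged 36.1 ± 1.23 FPKM in silenced buds and 15.7 ± 1.54 FPKM in wild type buds, and 5.64 ± 0.518 FPKM in silenced stems and 3.46 ± 0.336 FPKM in wild type stems. FLC1 was closest to Bra000913 (r = 0.995), with 860 genes at 0.95 or more, 3.39% of those compared. FLC2 was closest to Bra009028 (r = 0.994), with 214 genes at 0.95 or more, 0.844% of those compared. Bra009028 averaged 19.9 ± 1.09 FPKM in silenced buds and 12.4 ± 0.599 FPKM in wild type buds, and 13.5 ± 0.438 FPKM in silenced stems and 18.5 ± 0.806 FPKM in wild type stems. FLC5, whose groups overlapped with their neighbours in the order, reached r = 0.757 with its closest gene, Bra032419, and 0 genes reached 0.95.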

How the data were processed

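Per the labels' protocols, RNA was isolated with Trizol and sequenced as Illumina libraries; strand is not stated. The deposited count table holds the authors' whole-number read counts per gene, not normalized, for 41020 genes. The authors' deposited FPKM table lists 36230 genes. In all 35651 genes with reads, FPKM equalled the count over the library total and a whole-number length (relative tolerance 1e-06), always a multiple of 3, so these are coding lengths. The tools in the submitters' processing notes are featureCounts 2.0.1, HISAT2 2.1.0, TopHat2 and Bowtie 1.0.1, with no roles; no source used here gives the genome build. In the gene table used (CAAS_Brap_v3.01), names were found for 1 of 41020 identifiers and for 0 of the 4 copies.

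Counts were tested in edgeR 4.0.16 (R 4.3.3) over all 12 libraries with 1 term per group, TMM scaling and filterByExpr (minimum count 10), which removed 12906 genes. Tests are two-sided quasi-likelihood tests with Benjamini-Hochberg adjustment over all 28114 genes tested, called under 0.05. SEs and 95% intervals were derived from the test statistic. Alternatives were other scalings, no filter, DESeq2 1.42.0, the compared groups alone, a replicate block, limma 3.58.1 on log2(FPKM + 1) and log2(FPKM + 0.1), and leaving out libraries; rescaled levels and leaving out libraries for levels and ratios were added after seeing the data. The genes named are the 4 copies and, per copy, the gene with the highest Pearson's r (log2 CPM, prior count 2). The copies and lists were chosen with earlier results of these data known.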

Additional observations from a re-analysis of the deposited data

Results flagged for a closer look

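The effect of silencing differed between bud and stem for 3 of the copies by edgeR's interaction test over 12 libraries. For FLC2 the difference, bud minus stem, was 1.81 on the log2 scale (adjusted p = 5.19e-33), and it lay between 1.74 and 1.96 when each library was left out in turn. For FLC3 it was 0.76 (adjusted p = 0.000113), between 0.63 and 0.90 with a library left out, and for FLC1 it was 0.74 (adjusted p = 1.22e-07), between 0.65 and 0.91. The upper ends came from the fits without silenced bud replicate 1 (FLC1 and FLC3) or replicate 3 (FLC2). Those fits also shifted the difference of the median gene, by 0.12 and 0.11. Such a difference was called for 74.4% of all genes tested, so the number of copies called is no result about the copies. Genes with a larger difference in either direction made up 32.0% for FLC2, 64.7% for FLC3 and 65.9% for FLC1. Every silenced bud library of FLC2 lay above, and every silenced stem library below, the wild type libraries of its tissue.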

How the results depend on the processing

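Between genotypes, the calls for FLC2 and FLC3 in both tissues and for FLC1 in stem, and the differences of effects for these 3 copies, kept their direction and call under every alternative run. FLC1 in bud, 0.14 and not called, was called at 0.21 with library totals, 0.15 without the low-count filter, 0.20 with limma on log2(FPKM + 1) with and without its filter, and 0.21 with log2(FPKM + 0.1). With libraries left out it lay between 0.10 and 0.23, called without silenced bud replicate 1 (0.23) or wild type bud replicate 3 (0.17). The sign of FLC5 between wild type buds and wild type stems, -0.037, turned with library totals (0.33), upper-quartile scaling (0.053) and limma on log2(FPKM + 1) with and without its filter (0.28) or log2(FPKM + 0.1) (0.31). With libraries left out it lay between -0.22 and 0.048. FLC5 between silenced buds and silenced stems, 0.28, was called at 0.73 with library totals, 0.39 with upper-quartile scaling, 0.68 with limma on log2(FPKM + 1) with and without its filter and 0.74 with log2(FPKM + 0.1). Without silenced stem replicate 3 it was called at 0.47, in a range of 0.18 to 0.47. FLC2 between silenced buds and silenced stems lay between 0.18 and 0.28 with libraries left out. Library totals and FPKM lack the TMM factors. Relative to TMM, library totals shifted the median gene by 0.069 between silenced and wild type buds. The larger bud to stem shifts are given above. The causes of the changes were not tested.

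No pairing of the libraries by replicate number was seen. Deviations from group means of same-numbered libraries correlated at -0.020 to 0.021, as those of other numbers did (-0.026 to 0.023). Where the spread among replicates is technical, this check could not detect a pairing. With the replicate block FLC1 in bud stood at 0.14 (adjusted p = 0.0585), and no call of a copy changed. Fits of the compared groups alone do not apply to the difference of effects, which needs all 4 groups. Counts of genes called stayed within 1.5 times, at 18632 to 20254 in stem and 21166 to 24012 in bud.

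Rescaling FPKM to TMM library sizes moved 12 of the 16 levels by more than their SD. FLC1 then averaged 16.2 in silenced stems, 24.4 in wild type stems, 56.4 in silenced buds and 51.2 in wild type buds. FLC2 averaged 40.0 in silenced stems, 63.5 in wild type stems, 46.9 in silenced buds and 21.2 in wild type buds. FLC3 averaged 10.7 in silenced stems, 86.4 in silenced buds and 28.0 in wild type buds, and FLC5 11.99 in silenced buds. As shares of reads in place of FPKM, FLC5 took 9.64% in silenced stems, 7.72% in wild type stems, 4.34% in silenced buds and 6.86% in wild type buds, and FLC1 24.9% in wild type stems and 48.5% in wild type buds. The silenced minus wild type differences of the log2 ratios between copies kept their sign in all 72 repeats with a library left out and with 0.1 added to FPKM. Their size moved by over 1.5 times in 4 of the 12 comparisons: FLC1 to FLC5 in stem and bud and FLC2 to FLC5 in stem, as given above, and FLC2 to FLC1 in stem (-0.072, against -0.027 without silenced stem replicate 2). Counting error was highest for FLC3 in wild type stems, at 14.8%, and ranged from 10.5% to 13.8% for FLC5.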

Other observations

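The spread between libraries can be set beside the error of counting alone. For FLC5 the coefficient of variation of the 3 libraries was 22.5% in silenced stems, where counting gives 13.8%, and 17.2% in wild type stems, where it gives 12.8%. In silenced buds it was 5.75%, where counting gives 10.5%, and in wild type buds 20.2%, where it gives 11.7%. FLC3 varied by 5.08% in silenced buds, where counting gives 3.35%, and by 3.33% in wild type buds, where it gives 6.10%.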
